A study of Mus musculus with 19 samples.

Results

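A set of 10 genes that follow new neurons through the adult hippocampus was described in whole hippocampus of transplanted mice, namely Dcx, Sox11, Sox4, Neurod1, Prox1, Nes, Sox2, Calb2, Eomes and Igfbpl1. They were chosen by symbol, and all 10 were found among the 15634 genes of the hippocampus table. The GVHD group held 3 hippocampus samples and the TCD group 3, taken on day 80 after transplantation, with 1 library each; pooling of animals is not stated. All recipients had been irradiated with a split dose of 1100 cGy and had received 5000000 T-cell-depleted (TCD) marrow cells. By the protocol in the labels, the graft-versus-host disease (GVHD) mice also received 500000 splenic T cells. Irradiation was thus shared by both groups, and no unirradiated hippocampus is among them. Strain, age and sex are not given in the sources used here. Another experiment of the series, on cells sorted from the brain on day 70 (6 libraries of GVHD donor bone marrow-derived macrophages, 4 of GVHD host microglia and 3 of TCD host microglia), is used only where it lists the same genes.

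The dentate gyrus of the hippocampus makes granule neurons throughout adult life in rodents. Radial glia-like stem cells express Sox2 and Nes, intermediate progenitors switch on Eomes (Tbr2) and Neurod1, and neuroblasts and immature neurons carry Dcx, Sox11, Sox4, Igfbpl1 and, for a short time, Calb2, before mature granule neurons keep Prox1. Irradiation and inflammation are both known to lower this production of neurons in rodents. Most of these genes also have other sources: Sox2 and Sox4 are expressed in glia, Nes in blood vessels, Calb2 in interneurons and mossy cells, and Eomes in cytotoxic T cells and natural killer cells.

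None of the 10 genes passed the test between GVHD and TCD hippocampus. Of the 9 that could be tested, 0 were called by limma at an adjusted p under 0.05, against 0.479% of all 14404 tested genes (0.319% higher and 0.160% lower). At an unadjusted p under 0.05 there were 3, Eomes, Sox2 and Sox4, against 17.0% of all tested genes. Values of GVHD and TCD libraries were fully separated for 2 of the 10, Eomes with higher and Sox2 with lower values in GVHD. Such separation was seen in 24.0% of all tested genes (10.8% higher and 13.2% lower). For Eomes it came with the filter, which kept genes that reached 1 in 3 or more libraries. Eomes reached 1 in all 3 GVHD libraries and in 0 TCD libraries, so its separation and p-value are no support for a difference. Mean values were higher in GVHD for 5 of the 10 genes and lower for 5. Values are the deposited normalised counts, in which 1 read was worth an estimated 0.0540 to 0.0612 in these libraries, and fold changes are differences of log2(value + 1) with their standard errors (SE). In whole tissue, fewer cells of a type and less RNA per cell cannot be told apart. That the labels call the samples separate is all that is known of the replicates. The p-values thus set group differences against the spread between these samples, which limma moderates over all genes.

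**Figure D1:**
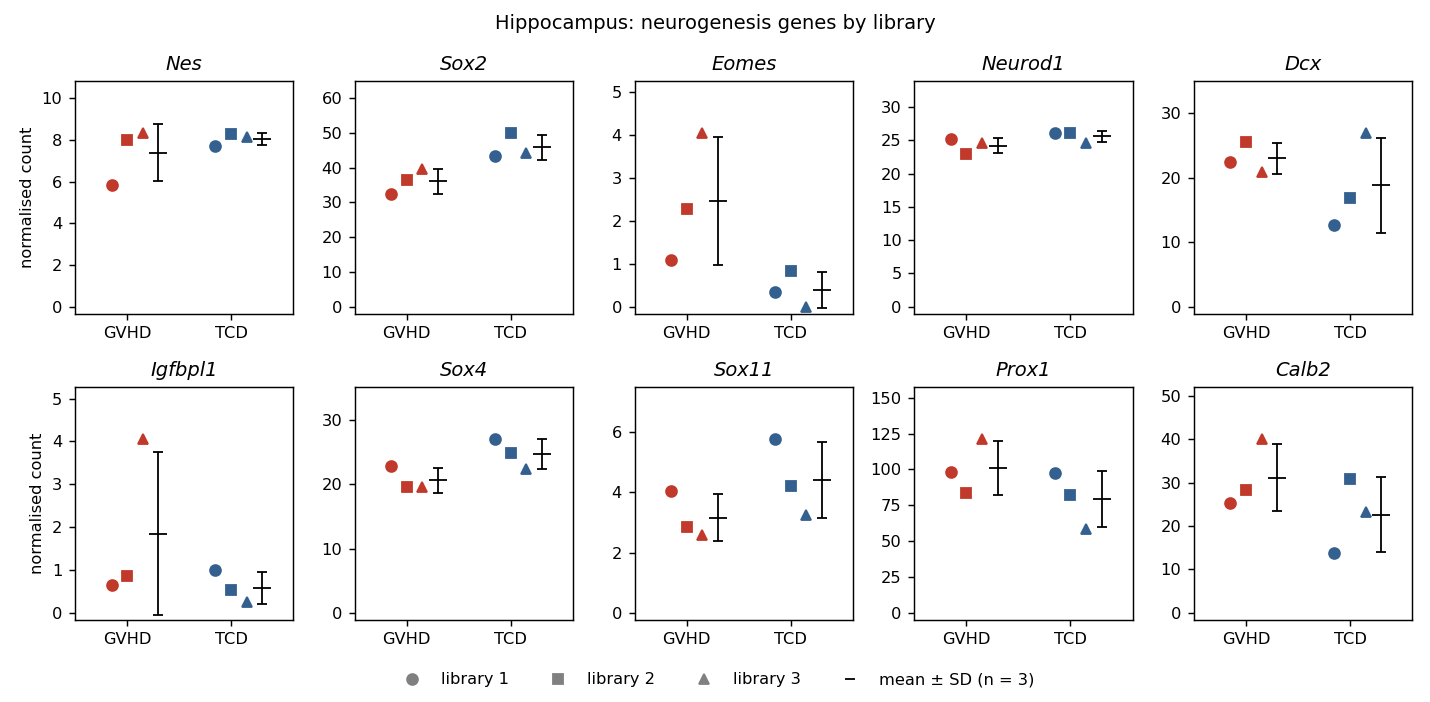
Normalised count (vertical axis, from 0) of each of the 10 genes in the 3 GVHD (left) and 3 TCD (right) hippocampus libraries; symbols give the library number and bars the mean ± SD. Eomes is the gene with all GVHD values (1.08 to 4.05) above all TCD values (0 to 0.831), and Sox2 the one with all GVHD values (32.3 to 39.5) below all TCD values (43.2 to 49.9).

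The tissue was first checked for its neurons and its neighbours. Genes of dentate granule and pyramidal neurons were present in all 6 libraries, with summed values of 397 to 531 in GVHD and 442 to 554 in TCD for 12 granule neuron genes, and 1254 to 1320 in GVHD and 1262 to 1706 in TCD for 12 pyramidal neuron genes. Choroid plexus genes were higher in GVHD, where 12 of 12 were tested and 11 called (Ttr, Folr1, Clic6, Kcne2, Enpp2, Kcnj13, Aqp1, Prlr, Sostdc1, Otx2 and Slc4a5), with summed values of 4629, 1650 and 5382 in GVHD libraries 1, 2 and 3 and 270, 225 and 181 in TCD libraries 1, 2 and 3. Folr1, Kcne2, Aqp1 and Otx2 passed the filter on low values through their GVHD libraries only. None of the 12 was called without GVHD library 1, without GVHD library 3, without TCD library 2 or without a variance trend, while their median log2 fold change stayed between 3.06 and 3.39 in these fits. Their part in the values below was not tested. Over all tested genes 46 were higher and 23 lower in GVHD, and quantile normalisation made this 30 and 9. Correction for GC content, whose trend differed between the groups, made it 31 and 2.

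Among the stem cell genes, Sox2, a transcription factor that keeps neural stem cells undifferentiated, had values of 32.3, 36.4 and 39.5 in GVHD libraries 1, 2 and 3, against 43.2, 49.9 and 44.2 in TCD libraries 1, 2 and 3. Every GVHD library lay below every TCD library. The log2 fold change was -0.34 ± 0.10 (SE, limma adjusted p = 0.155), a value of 0.792 times the TCD level with a 95% interval of 0.676 to 0.928 before adjustment for the number of genes. Sox2 (ENSMUSG00000074637, chromosome 3, 34650405 to 34652461 on GRCm38, plus strand) is a gene of 1 exon that lies within an intron of the long noncoding gene Sox2ot on the same strand, so reads of unspliced Sox2ot RNA cannot be told apart from its own. Nes encodes nestin, an intermediate filament of stem cells. It had values of 5.83, 8.0 and 8.33 in GVHD and 7.73, 8.31 and 8.13 in TCD libraries. The GVHD range enclosed the TCD range, and the TCD libraries were close together, with a coefficient of variation of 3.67% against 18.4% in GVHD. The log2 fold change of Nes was -0.12 ± 0.15 (adjusted p = 0.718), and it was 0.017 without GVHD library 1.

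The other genes of radial glia-like stem cells did not move together. Of 17 tested genes of this list none was called, 9 had positive and 8 negative fold changes, and their median was 0.03, beside 0.005 over all tested genes. The smallest p-values belonged to Aldoc, a glycolytic enzyme of astrocytes and stem cells (-0.33 ± 0.08, SE, adjusted p = 0.109), Lpar1, a lysophosphatidic acid receptor (0.50 ± 0.14, adjusted p = 0.137), and Vim, vimentin (0.42 ± 0.14, adjusted p = 0.191). Lpar1 was at 39.7, 43.9 and 56.7 in GVHD and 30.2, 36.8 and 30.5 in TCD libraries. Over all tested genes 51.0% of fold changes were positive (7340 positive and 7064 negative). Glial genes that share cells with Sox2 had mostly negative fold changes. In the oligodendrocyte precursor list 8 of 10 were negative and none was called (median -0.21), with C1ql1 at 5.18, 5.11 and 5.04 in GVHD against 11.4, 9.20 and 8.19 in TCD libraries (-0.78 ± 0.14, adjusted p = 0.0577) and Gpr17 at -0.41 ± 0.09 (adjusted p = 0.0731). The summed precursor genes were 362, 373 and 367 in GVHD and 435, 452 and 385 in TCD libraries. In the astrocyte list 7 of 10 were negative and none was called (median -0.10), with the gap junction gene Gja1 at -0.27 ± 0.08 (adjusted p = 0.154). In the list of endothelium and pericytes, cells that also express Nes, 10 of 12 were negative and none was called (median -0.09), with the tight junction gene Cldn5 at -0.58 ± 0.12 (adjusted p = 0.0742). The part of these cells in the Sox2, Sox4 and Nes values was not tested.

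Among progenitor genes, Eomes encodes the T-box factor Tbr2 of intermediate progenitors. Its values were 1.08, 2.27 and 4.05 in GVHD libraries 1, 2 and 3, against 0.349, 0.831 and 0 in TCD libraries 1, 2 and 3. The groups did not overlap, but the 3 GVHD libraries differed among themselves by more than TCD library 2 differed from GVHD library 1. In reads these values were an estimated 20, 40 and 69 in GVHD and 6, 14 and 0 in TCD libraries. Eomes passed the filter on low values only through its GVHD libraries, which alone put all its GVHD values above all its TCD values. Its separation, p-value and interval are therefore no support for a difference. Its log2 fold change was 1.27 ± 0.35 (SE, limma adjusted p = 0.137), or 2.40 times the TCD level on the value + 1 scale with a 95% interval of 1.38 to 4.19 before adjustment. At values this low the pseudocount set the size: the log2 fold change was 0.45 with a pseudocount of 5 and 2.70 with 0.1. Eomes (ENSMUSG00000032446, chromosome 9, 118478212 to 118486132, plus strand) overlaps an antisense gene, Gm33460, by 118 exonic bases. The library type is given as stranded, but the strand setting of the counting is not stated.

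Among marker lists of other tissue and cells, several were highest in GVHD library 3, as Eomes was. They were the ependymal and choroid plexus lists and the thalamus and lymphatic lists, which hold Calb2 and Prox1. The ependymal list had summed values of 21, 17.0 and 37.3 in GVHD and 11.2, 17.6 and 9.97 in TCD libraries. All 6 of its tested genes had positive fold changes and none was called (median 0.65), led by Mia (1.14 ± 0.27, SE, adjusted p = 0.0928). Mia passed the filter through its GVHD libraries only. The list of striatum and subventricular zone had summed values of 170, 175 and 184 in GVHD and 186, 173 and 226 in TCD libraries. In it 7 of 10 fold changes were negative and none was called (median -0.13), with the adenosine receptor gene Adora2a at -0.63 ± 0.31 (adjusted p = 0.342). Of 16 T cell and natural killer cell genes, 13 are not analysed here, the T cell receptor genes Cd3e and Trac among them. The sum of the other 3 (Cd8a, Nkg7 and Ccl5) was 5.13, 4.54 and 2.70 in GVHD and 1.86, 1.07 and 0.917 in TCD libraries. This sum was higher in every GVHD library, and within GVHD it was highest in library 1 and lowest in library 3. Of the 3, only Cd8a passed the filter, through its GVHD libraries only. It was at 2.59, 2.16 and 1.35 in GVHD and 0.698, 0.0594 and 0.428 in TCD libraries (1.12 ± 0.25, SE, limma adjusted p = 0.0867). The part of T cells and natural killer cells in the Eomes values was not tested.

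Neurod1, a basic helix-loop-helix factor that commits progenitors to the granule neuron fate and stays on in neurons, varied least of the 10 genes. It had values of 25.2, 22.9 and 24.6 in GVHD and 26.1, 26.1 and 24.6 in TCD libraries, a ratio of 1.14 between the highest and the lowest library. The log2 fold change was -0.08 ± 0.09 (SE, adjusted p = 0.704), and its 95% interval of -0.27 to 0.12 corresponds to 0.829 to 1.09 times the TCD level. Its gene shares 201 exonic bases with Cerkl on the same strand, which had values of only 1.65 to 2.57 in the 6 libraries.

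Of the 8 tested genes of the list for cycling cells and intermediate progenitors, none was called, 5 had positive and 3 negative fold changes, and the median was 0.05. Insm1, a zinc finger factor of neuronal progenitors, had the smallest p, with values of 6.48, 6.07 and 4.99 in GVHD against 12, 9.92 and 8.01 in TCD libraries (-0.67 ± 0.17, SE, adjusted p = 0.103). Its groups did not overlap, and its direction was opposite to that of Eomes. Ccnd2, a cyclin needed for adult neurogenesis in mice, was at 0.17 ± 0.08 (adjusted p = 0.348) and Mki67, a marker of dividing cells, at -0.27 ± 0.22 (adjusted p = 0.584). Mki67 was low throughout, at 1.19, 1.48 and 1.47 in GVHD and 1.40, 2.85 and 1.53 in TCD libraries, and the division genes Cdk1, Ccnb1 and Birc5 are not analysed here.

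Of the genes of neuroblasts and immature neurons, Dcx encodes doublecortin, the microtubule-associated protein most used to mark new neurons. It was at 22.5, 25.6 and 20.9 in GVHD libraries 1, 2 and 3, against 12.6, 16.9 and 26.9 in TCD libraries 1, 2 and 3. The GVHD libraries lay close together, while the TCD libraries held both the lowest and the highest value of the 6. The coefficient of variation was 10.4% in GVHD and 38.9% in TCD. The log2 fold change was 0.34 ± 0.23 (SE, adjusted p = 0.496), with a 95% interval of -0.19 to 0.86. It depended on single TCD libraries: it was 0.10 without TCD library 1 and 0.61 without TCD library 3. Dcx lies on chromosome X (ENSMUSG00000031285, 143855842 to 143933311, minus strand), and its 12647 exonic bases are the longest of the 10 genes.

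The genes whose values followed Dcx most closely over the 6 libraries, of 224 compared, were Elavl4, Vip and Calb1. Their root-mean-square distances from Dcx in centred log2(value + 1) were 0.13, 0.18 and 0.21. Elavl4, a neuronal RNA-binding protein, was at 105, 113 and 92.6 in GVHD and 66.2, 94.4 and 115 in TCD libraries. Vip, a peptide of interneurons, was at 23.6, 20.5 and 17.0 in GVHD and 12.4, 18.7 and 28.6 in TCD libraries, and Calb1, calbindin of mature granule neurons and other neurons, at 121, 109 and 134 in GVHD and 81.8, 112 and 150 in TCD libraries. All 3 shared with Dcx the rank order of the TCD libraries, lowest in library 1 and highest in library 3.

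The SoxC factors Sox4 and Sox11, which switch on neuronal genes in neuroblasts, had lower mean values in GVHD. Sox4 was at 22.8, 19.5 and 19.5 in GVHD and 27.0, 24.8 and 22.4 in TCD libraries, so that the groups overlapped only through GVHD library 1 and TCD library 3. The log2 difference of Sox4 came to -0.25 ± 0.11 (SE, adjusted p = 0.283). Sox11 was at 4.05, 2.84 and 2.58 in GVHD and 5.76, 4.22 and 3.24 in TCD libraries, with a log2 fold change of -0.37 ± 0.22 (adjusted p = 0.426). GVHD library 1 and TCD library 1 were the highest of their groups in both genes. Sox4 shares 2616 exonic bases with an antisense gene, Gm26735, which is not analysed here. Igfbpl1, an insulin-like growth factor binding protein family member expressed in neuroblasts in mice, was at 0.648, 0.851 and 4.05 in GVHD and 0.989, 0.534 and 0.245 in TCD libraries. It reached a value of 1 in GVHD library 3 alone and was not tested. In reads it stood at an estimated 69 in that library and at 4 to 17 in the other 5.

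Other genes of immature neurons ran both ways. Of 19 tested genes none was called, 7 had positive and 12 negative fold changes, and the median was -0.09. The 3 with the smallest p were negative: Tubb2b (-0.29 ± 0.07, SE, adjusted p = 0.0914) and Tubb3 (-0.35 ± 0.09, adjusted p = 0.115), both tubulins of young neurons, and Bhlhe22 (-0.46 ± 0.13, adjusted p = 0.136), a transcription factor of excitatory neurons. Tubb3 was at 232, 229 and 194 in GVHD and 257, 283 and 293 in TCD libraries, and the groups did not overlap. Tubb3 is also on the list of genes of all neurons, where 10 of 12 fold changes were negative and none was called (median -0.16), with the synaptic vesicle gene Syn1 at -0.35 ± 0.08 (adjusted p = 0.0959) and Rbfox3, the NeuN antigen, at -0.44 ± 0.11 (adjusted p = 0.101).

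**Figure D2:**
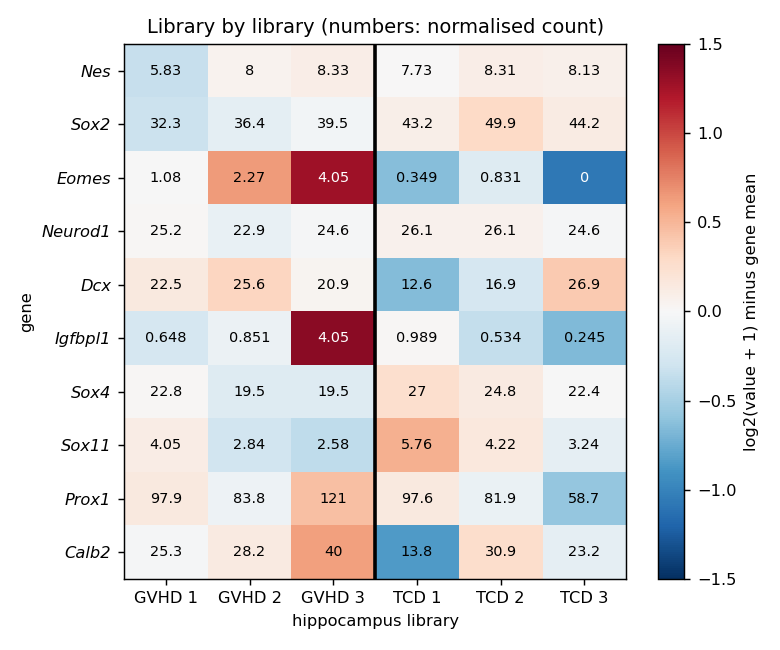
Each cell shows log2(value + 1) minus the gene's mean over the 6 hippocampus libraries (colour) with the normalised count printed in it; rows are the 10 genes, columns the 3 GVHD (left of the line) and 3 TCD libraries. Eomes and Igfbpl1 are both at 4.05 in GVHD library 3, while Dcx is lowest (12.6) in TCD library 1 and highest (26.9) in TCD library 3.

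Prox1, a homeobox factor that granule neurons need from their birth into maturity, had values of 97.9, 83.8 and 121 in GVHD and 97.6, 81.9 and 58.7 in TCD libraries. The groups overlapped, with GVHD library 3 highest and TCD library 3 lowest. The log2 fold change was 0.36 ± 0.19 (SE, adjusted p = 0.380), which became 0.16 when TCD library 3 was left out and 0.52 when TCD library 1 was. In the TCD libraries Prox1 and Dcx had opposite orders, since TCD library 3 held the highest Dcx and the lowest Prox1 value. Lymphatic vessels also express Prox1, and of the lymphatic genes other than Prox1, Flt4 was at -0.25 ± 0.19 (adjusted p = 0.540) and Pdpn at 0.26 ± 0.15 (adjusted p = 0.423). Among 12 tested genes of mature granule neurons none was called, 6 fold changes were positive and 6 negative, and the median was 0.03. Dsp, a desmosome protein enriched in granule neurons in mice, ordered the libraries as Prox1 did, at 47.2, 33 and 59.1 in GVHD and 39.1, 32.4 and 21.8 in TCD libraries (0.56 ± 0.24, adjusted p = 0.286). C1ql2, a synaptic organiser of granule neurons, was at 38.6, 26.5 and 32.3 in GVHD and 83.4, 43.8 and 29.0 in TCD libraries (-0.55 ± 0.32, adjusted p = 0.428).

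Calb2 encodes calretinin, a calcium-binding protein of young granule neurons, mossy cells and some interneurons. It was at 25.3, 28.2 and 40.0 in GVHD and 13.8, 30.9 and 23.2 in TCD libraries. TCD library 2 lay above 2 of the GVHD libraries, and the highest library was 2.90 times the lowest. The log2 fold change was 0.49 ± 0.27 (SE, adjusted p = 0.403), and it was 0.18 without TCD library 1 and 0.74 without TCD library 2. Calb2 is also expressed in the thalamus next to the hippocampus. The thalamus list, which holds Calb2 itself, had summed values of 152, 182 and 292 in GVHD and 118, 169 and 139 in TCD libraries, with none of 11 tested genes called and a median of 0.20. Of its fold changes 7 were positive and 4 negative. Zic1 was at 18.4, 29.5 and 98.3 in GVHD and 12.4, 24.0 and 14.4 in TCD libraries (1.17 ± 0.52, SE, adjusted p = 0.3). Slc17a6 was at 42.4, 54.0 and 50.8 in GVHD and 14.7, 39.4 and 39.9 in TCD libraries, with no overlap (0.75 ± 0.33, adjusted p = 0.293). Tcf7l2, a defining factor of thalamic neurons, was at 2.59, 2.84 and 2.52 in GVHD and 5.70, 4.87 and 4.53 in TCD libraries (-0.72 ± 0.15, adjusted p = 0.0712). The part of thalamic tissue in the Calb2 values was not tested. None of 14 interneuron genes was called (median 0.02, with Cck at -0.37 ± 0.12, Gad1 at 0.23 ± 0.08 and Adarb2 at 0.28 ± 0.11), nor any of 7 mossy cell genes (median -0.22, with Ap2s1 at -0.22 ± 0.07, Ajap1 at -0.38 ± 0.14 and Calcrl at 0.29 ± 0.13).

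**Figure D3:**
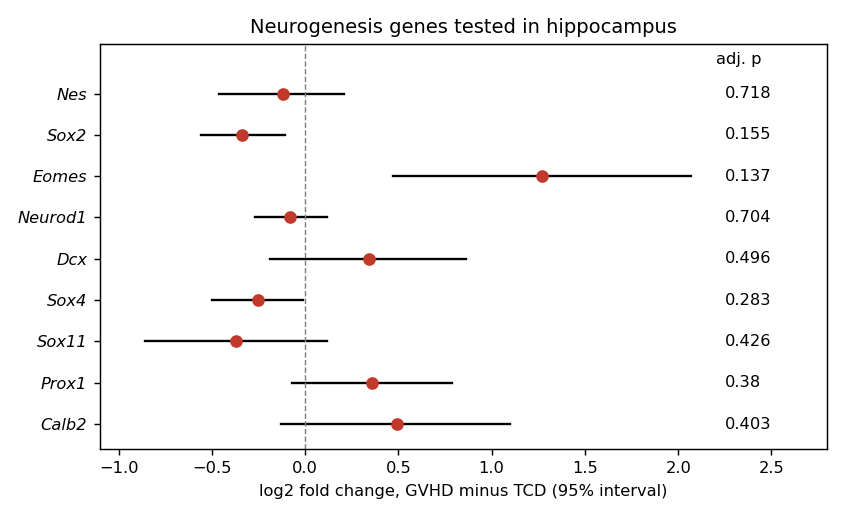
Log2 fold change of GVHD minus TCD hippocampus (horizontal axis) for the 9 tested genes, with the unadjusted 95% interval as a line and the adjusted p at the right. The intervals of Sox2 (-0.56 to -0.11), Sox4 (-0.50 to -0.01) and Eomes (0.47 to 2.07) do not reach 0, and no adjusted p is under 0.05. Eomes passed the filter through its GVHD libraries only, so its interval is no support for a difference.

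The promoters of Sox2, Sox4 and Eomes are shown because these 3 genes had the smallest p-values. Each sequence is 150 bases, 5′ to 3′ on the strand of the gene, from RefSeq (GRCm38.p6). It ends just before the start in RefSeq or the start in GENCODE, whichever lies farther upstream. For Sox2 and Eomes this is the RefSeq start, which lies upstream of the GENCODE start given with their positions above. Capitals mark CCAAT and TATAA, read on both strands, so that ATTGG is CCAAT on the other strand; these motifs were chosen after the sequences were seen. The Sox2 window is chr3:34649845-34649994 (plus strand), the Sox4 window chr13:28953714-28953863 (minus strand) and the Eomes window chr9:118478039-118478188 (plus strand).
Sox2: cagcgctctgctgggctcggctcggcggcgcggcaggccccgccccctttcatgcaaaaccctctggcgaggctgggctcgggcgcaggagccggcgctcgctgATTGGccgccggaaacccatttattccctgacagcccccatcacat
Sox4: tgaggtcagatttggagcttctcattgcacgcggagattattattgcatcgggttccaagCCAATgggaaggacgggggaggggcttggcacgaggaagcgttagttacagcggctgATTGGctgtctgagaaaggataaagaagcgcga
Eomes: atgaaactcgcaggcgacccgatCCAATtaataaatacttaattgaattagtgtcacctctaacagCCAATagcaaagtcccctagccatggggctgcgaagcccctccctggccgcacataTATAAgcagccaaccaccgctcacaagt
The Eomes window holds 2 CCAAT motifs and 1 TATAA, the Sox4 window 2 CCAAT motifs and the Sox2 window 1. Promoters were found for 7 of the 10 genes (Dcx, Eomes, Nes, Prox1, Sox11, Sox2 and Sox4), and 5 of these held CCAAT and 3 TATAA, against 26.5% and 13.3% of the 19712 promoters searched. The E-box CANNTG, bound by factors such as Neurod1, was in 1 of the 7 (Sox11), against 45.8% of all promoters. The neuronal E-box CAGATG, which is a case of CANNTG, the SOX motifs AACAAT and ACAAAG and the T-box motif AGGTGT were in 0 of the 7, against 8.29%, 5.16%, 9.45% and 6.65% of all promoters, a statement on these letters in these windows only.

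Levels of different genes were set side by side only per kilobase of exonic length. In GVHD hippocampus the order of the normalised count per kilobase was Calb2 (17.9 ± 4.48, SD, n = 3), Sox2 (17.5 ± 1.75), Prox1 (12 ± 2.27), Neurod1 (8.88 ± 0.433), Sox4 (4.30 ± 0.400), Dcx (1.82 ± 0.189), Nes (1.15 ± 0.212), Eomes (0.594 ± 0.359), Igfbpl1 (0.569 ± 0.587) and Sox11 (0.380 ± 0.0944). In TCD hippocampus Sox2 (22.2 ± 1.78) was followed by Calb2 (13 ± 4.91), Prox1 (9.46 ± 2.33), Neurod1 (9.38 ± 0.319), Sox4 (5.17 ± 0.480), Dcx (1.49 ± 0.579), Nes (1.26 ± 0.0462), Sox11 (0.530 ± 0.153), Igfbpl1 (0.181 ± 0.115) and Eomes (0.0947 ± 0.10). In GVHD the ranges of mean ± SD overlapped for Calb2 with Sox2 and with Prox1, and for Nes with Eomes and with Igfbpl1. They also overlapped among Eomes, Igfbpl1 and Sox11. In TCD they overlapped among Calb2, Prox1 and Neurod1, for Dcx and Nes, and for Igfbpl1 and Eomes. The 10 genes fell into a group of 5 with higher levels (Calb2, Sox2, Prox1, Neurod1 and Sox4) and a group of 5 with lower levels (Dcx, Nes, Eomes, Igfbpl1 and Sox11), in both conditions. GVHD library 3 held the highest value of the 6 for 5 of the 10 genes, TCD library 1 for 3, TCD library 2 for 1 and TCD library 3 for 1.

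The signals that surround neurogenesis gave no called gene either. Of 27 tested niche genes 14 had positive and 13 negative fold changes, with a median of 0.03. Those with the smallest p were Foxo3, a factor that keeps stem cells quiescent (-0.25 ± 0.07, SE, adjusted p = 0.139), Igfbp2, an insulin-like growth factor binding protein (1.01 ± 0.35, adjusted p = 0.202), and Rest, a repressor of neuronal genes (0.34 ± 0.14, adjusted p = 0.275). Igfbp2 was at 74.9, 28.9 and 83.0 in GVHD and 21.6, 34.0 and 28.4 in TCD libraries. It is also made by choroid plexus, whose part in these values was not tested. Bdnf, a neurotrophin, was at 43.6, 34.3 and 44.6 in GVHD and 47.3, 34.7 and 34.8 in TCD libraries.

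Of 12 inflammatory factors known to act on neurogenesis in rodents, 6 are not analysed here (Il1b, Il6, Tnf, Ccl11, Ifng and Ccl2). Of the other 6, none was called, 5 had positive fold changes, and the median was 0.51. Tnfrsf1a, a receptor for tumour necrosis factor, was at 14.6, 15.2 and 14.7 in GVHD and 10.7, 10.8 and 9.66 in TCD libraries, with no overlap (0.48 ± 0.10, SE, adjusted p = 0.0775). C3, a complement protein, was at 9.34, 8.17 and 9.44 in GVHD and 3.55, 4.57 and 0.917 in TCD libraries (1.45 ± 0.35, adjusted p = 0.0962). B2m, the light chain of MHC class I and a factor known to lower neurogenesis in mice, was at 237 ± 23.7 in GVHD and 137 ± 63.9 in TCD libraries (SD, n = 3 each), with 64.3 in TCD library 3 (0.92 ± 0.33, adjusted p = 0.215). Of the macrophage list all 6 tested genes had positive fold changes and none was called (median 1.61), with summed values of 319, 682 and 126 in GVHD and 121, 82.8 and 29.2 in TCD libraries, whereas the summed microglia genes were 328, 281 and 347 in GVHD and 365, 319 and 297 in TCD libraries.

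**Figure D4:**
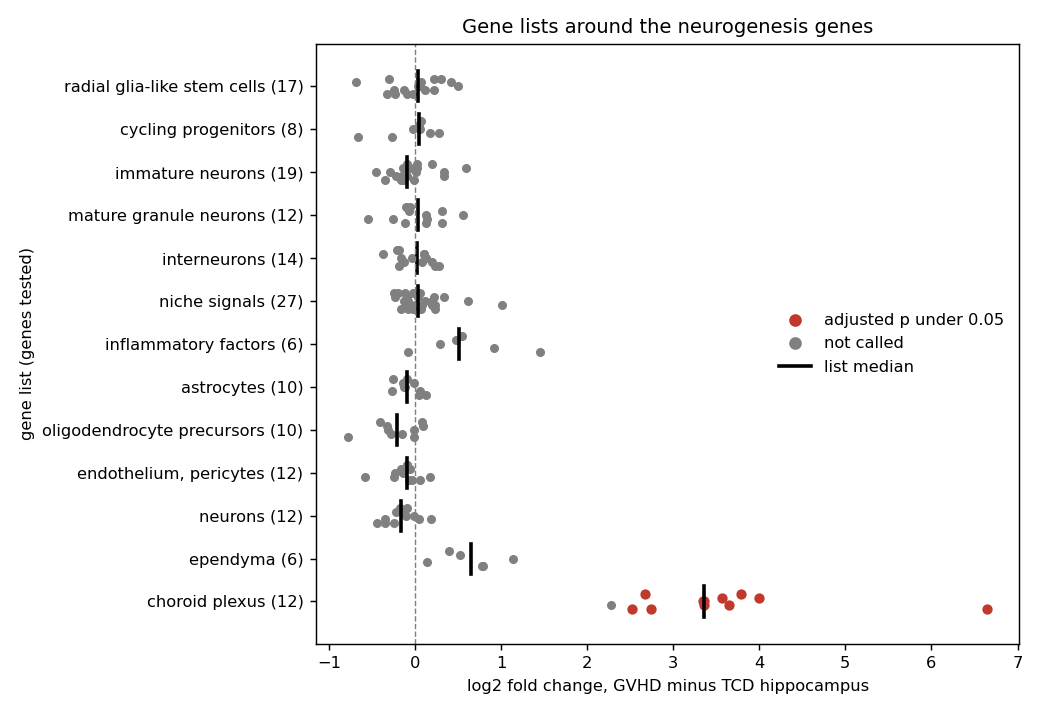
Log2 fold change of GVHD minus TCD hippocampus (horizontal axis) of each tested gene in 13 lists (rows, number tested in brackets); red points passed at an adjusted p under 0.05, grey points did not, and black bars are list medians. The medians of the stem cell (0.03), progenitor (0.05), immature neuron (-0.09) and granule neuron lists (0.03) lie near 0, and the called genes are the 11 of the choroid plexus list.

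In the sorted brain myeloid cells 3 of the 10 genes are listed, Sox4, Prox1 and Nes. Prox1 and Sox4 were lower in GVHD donor macrophages than in GVHD host microglia, a comparison in which 38.6% of all 13086 tested genes were called (19.4% higher and 19.2% lower), 47.0% had an unadjusted p under 0.05 and 27.9% did not overlap (13.3% higher and 14.6% lower). Prox1 had a lowest, median and highest value of 0, 0.292 and 0.812 in donor macrophages, against 14.8, 6.13, 11.2 and 8.40 in GVHD host libraries 1 to 4. The groups were far apart, and the log2 fold change was -3.0 ± 0.22 (SE, limma adjusted p = 2.89e-07). Prox1 passed the filter on low values through the host libraries only, so its separation and p-value are no independent support for a difference. The size of its fold change also depended on the pseudocount, at -4.82 with 0.1. Sox4 had a lowest, median and highest value of 4.30, 7.65 and 10.3 in donor macrophages, against 20.5, 17.9, 18.6 and 18.9 in GVHD host libraries, again with no overlap (-1.34 ± 0.22, adjusted p = 0.000379). Nes was low, at 0.214, 1.0 and 1.3 in donor macrophages, against 0.117, 0.442, 0.382 and 0.454 in GVHD host microglia (0.47 ± 0.22, adjusted p = 0.114). With a pseudocount of 0.1 this difference in Nes was 1.09. Nes passed the filter without its GVHD host libraries, none of which reached 1, so its p-value is no support for a difference.

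Between GVHD and TCD host microglia 0 of the 3 genes passed by limma and 1, Nes, had an unadjusted p under 0.05, where 0.107% of all tested genes were called (0.0917% higher and 0.0153% lower) and 6.85% had such a p. Nes was at 0.117, 0.442, 0.382 and 0.454 in GVHD host libraries 1 to 4, against 2.73, 1.63 and 0.724 in TCD host libraries 1 to 3. The groups did not overlap (-0.92 ± 0.26, SE, adjusted p = 0.309), as in 6.55% of all tested genes (3.57% higher and 2.98% lower). Nes reached 1 in none of the GVHD host libraries and passed the filter through donor and TCD host libraries only. Its separation and p-value are therefore no support for a difference. At these low values the pseudocount again set the size, which was -1.91 with 0.1. The description of TCD host library 1 names another group, Syn, whose meaning is not stated; without this library the fold change of Nes was -0.66 and the adjusted p 0.776. Sox4 (-0.26 ± 0.26, adjusted p = 0.895) was at 14.0, 33 and 23.3 in TCD host libraries and Prox1 (-0.25 ± 0.26, adjusted p = 0.895) at 16.5, 11.3 and 9.18. Scales were set separately for the 2 tables, so levels in sorted cells and in hippocampus were not compared.

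**Figure D5:**
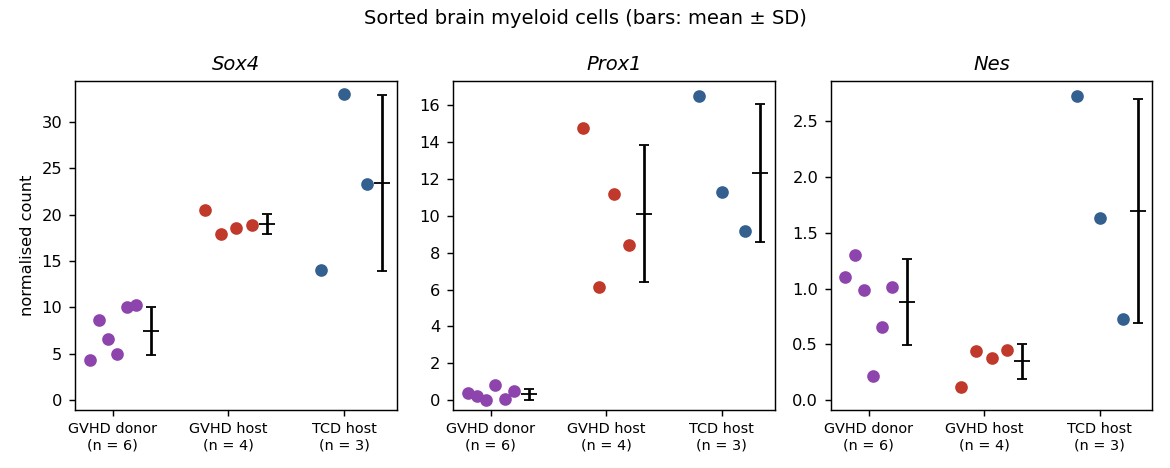
Normalised count (vertical axis) of Sox4, Prox1 and Nes in sorted GVHD donor macrophages (n = 6), GVHD host microglia (n = 4) and TCD host microglia (n = 3), from left to right; points are libraries and bars the mean ± SD. Prox1 is at most 0.812 in donor macrophages and at least 6.13 in both host groups.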

How the data were processed

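The values used are normalised counts, a signal per gene that the authors deposited with nearly equal library totals (982114.4 to 1078635.6 in hippocampus). Their scaling is not stated. Cutadapt 1.9, STAR 2.5.2a, RSEM 1.2.30 and the build GRCm38 are named in the submitters' processing notes without roles. In each hippocampus library 82.9% to 83.9% of values were whole multiples (within 0.02) of a smallest step, taken as 1 read. This gives an estimated 16673615 to 18546935 reads per library, which limits the precision of low values; whole counts could not be recovered and no count test was run. Symbols, lengths and GC content came from GENCODE M21 (GRCm38), with 182 of 15634 identifiers unmatched.

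Values were taken as log2(value + 1), keeping genes that reached 1 in 3 or more libraries (14404 in hippocampus, 13086 in sorted cells). Groups were compared with limma 3.58.1 in R 4.3.3, two-sided, using a mean-variance trend; p-values were adjusted by Benjamini-Hochberg across every gene kept. For the sorted cells a joint fit of all 13 libraries carried the API number as a covariate. Names were given to all 10 genes, to up to 3 genes per list with the smallest p, to called list members, and to the 3 list genes nearest to Dcx; other list members were named after their values were seen. The 10 genes and the lists were chosen with earlier results of these data known. Lists are described by counts and medians with no test. Alternatives covered the pseudocount, filter, scaling, variance trend, replicate block, GC correction, API covariate and each library left out.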

Additional observations from a re-analysis of the deposited data

How the results depend on the processing

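None of the 9 tested genes was called under any alternative run on the hippocampus comparison. The filter, the variance trend and the replicate block alone cannot move a fold change. Under the others, the 1 change of sign was that of Nes, which ran from -0.21 without GVHD library 3 to 0.017 without GVHD library 1. Without single libraries the log2 fold change ran from 0.10 to 0.61 for Dcx, -0.53 to -0.19 for Sox11, 0.16 to 0.52 for Prox1, 0.18 to 0.74 for Calb2, 0.95 to 1.59 for Eomes, -0.40 to -0.26 for Sox2 and -0.32 to -0.19 for Sox4. Filtering at 5 left Eomes and Sox11 untested. The lowest adjusted p in any refit was 0.102, for Dcx without TCD library 3.

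Counts over all genes were less stable than the main 69 (46 higher, 23 lower). They were 39 (30 and 9) with quantile normalisation and 33 with GC correction, of which 2 were lower. The slope of the log2 value per 10 points of GC content was -0.0424, -0.0156 and -0.117 in GVHD libraries 1, 2 and 3. In TCD libraries 1, 2 and 3 it was 0.094, 0.0678 and 0.0129, so GC trend and group cannot be told apart. Without a variance trend limma called 0 in each direction, with 2343 genes at an unadjusted p under 0.05. A pseudocount of 5 left 30 higher and a filter of 5 left 28. Without single libraries the total ran from 0 (without GVHD library 3 or TCD library 2, where 1879 and 1982 genes had an unadjusted p under 0.05) to 123 (without TCD library 3), with 0 to 69 higher and 0 to 64 lower; it was 2 without GVHD library 1. The causes were not tested. Same-numbered hippocampus libraries did not deviate together (correlations of -0.163, -0.040 and -0.183). With the replicate number as a block 16 genes were called (15 higher, 1 lower), and 20 with block and GC correction (18 and 2). In the sorted cells the block left Prox1 at -3.02 and Sox4 at -1.52, both called. Nes in donor macrophages against GVHD host microglia was called in 1 refit, without donor library 4 (0.59, adjusted p = 0.0464). Since Nes passed the filter without its GVHD host libraries, this call is no support for a difference. Depth limits Eomes and Igfbpl1, at an estimated 69 reads or fewer.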

Other observations

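GVHD hippocampus library 3, which held the highest Eomes, Igfbpl1, Calb2 and Prox1 values, was also the highest in a set of genes picked after their values were seen, so that no test applies. Zic1, Zic2, Zic4 and Zic5, zinc finger factors of the dorsal and midline brain and of olfactory interneurons, were highest there. Zic1 was at 18.4, 29.5 and 98.3 in GVHD and 12.4, 24.0 and 14.4 in TCD libraries, 3.33 times the next highest library, and Zic4 at 4.64, 3.69 and 12.1 in GVHD and 1.40, 3.33 and 1.9 in TCD libraries. The ratio to the next highest library was 1.59 for Zic2 and 2.31 for Zic5. Sp8 (2.35) and Cacng5, which was at 14.1, 18.3 and 42.8 in GVHD and 20.3, 16.4 and 13.6 in TCD libraries, were highest in the same library. Lbhd2, a marker of mitral and tufted cells of the mouse olfactory bulb, was low, at 0.378, 1.25 and 2.70 in GVHD and 0.291, 0.891 and 0.0612 in TCD libraries. Eomes is also expressed in mitral and tufted cells, and their part in the Eomes values was not tested. Doc2g, another gene of those cells, was at 1.43, 1.16 and 2.46 in GVHD and 1.25, 0.993 and 0.971 in TCD libraries. Cdhr1, also a gene of those cells, was nearly flat, at 13.8, 13.9 and 16.1 in GVHD and 14.0, 12.6 and 14.6 in TCD libraries.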
